A study of Mus musculus with 17 samples.

Results

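The 10 genes described here serve the arrival and activity of neutrophils, the white blood cells that enter a wound first. They are the chemokine genes Cxcl1, Cxcl2, Cxcl3 and Cxcl5, the receptor genes Cxcr2, Csf3r and Trem1, and the neutrophil product genes S100a8, S100a9 and Retnlg. They were picked by name, and each matched 1 row of the 34140 genes in the table. The study sequenced RNA of skin from C57/BL6j mice in 17 libraries, to look for molecules that act in wound healing after ionizing radiation. The control groups, which were not irradiated, are day 0 (2 libraries), day 3 (2), day 6 (2) and day 9 (3) after injury. The groups given ionizing radiation are day 3 (3 libraries), day 6 (2) and day 9 (3), and this arm has no day-0 library. The sources used here give neither the kind of injury, the radiation dose nor the age and sex of the mice, and do not state whether libraries came from separate or pooled animals. The p-values therefore measure the spread between these libraries, which may be technical.

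Neutrophils leave the blood when cells at an injury release short chemokines of the CXC family that carry a glutamate-leucine-arginine motif. In the mouse these ligands, among them the products of Cxcl1, Cxcl2, Cxcl3 and Cxcl5, act on the receptor CXCR2 on the neutrophil surface. The receptor for granulocyte colony-stimulating factor, encoded by Csf3r, drives neutrophil production and survival, and TREM1 amplifies inflammatory signalling in neutrophils and monocytes. S100A8 and S100A9 form the calcium-binding complex calprotectin, which is abundant in neutrophil cytoplasm and is also made by keratinocytes of injured epidermis. Retnlg encodes a resistin-like protein of mouse neutrophils.

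The 4 ligand genes lie within 146.6 kb on chromosome 5 (GRCm38/mm10, 90759360 to 90905938). In order along the chromosome they are Cxcl5 (ENSMUSG00000029371, 90759360 to 90761624), Cxcl3 (ENSMUSG00000029379, 90786103 to 90789600), Cxcl1 (ENSMUSG00000029380, 90891241 to 90893115) and Cxcl2 (ENSMUSG00000058427, 90903871 to 90905938). S100a8 (ENSMUSG00000056054, 90668978 to 90670035) and S100a9 (ENSMUSG00000056071, 90692632 to 90695721, reverse strand) are neighbours on chromosome 3 with 22.6 kb between them. The others are Cxcr2 (ENSMUSG00000026180, chromosome 1, 74153989 to 74161246), Csf3r (ENSMUSG00000028859, chromosome 4, 126024550 to 126044440), Trem1 (ENSMUSG00000042265, chromosome 17, 48232768 to 48246924) and Retnlg (ENSMUSG00000022651, chromosome 16, 48872608 to 48874498). No member overlaps another gene of the table. The ligand genes are related in sequence, and the sources used here do not say how reads that fit more than 1 of them were counted.

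The promoters of Cxcl1, Cxcl2, Cxcl3 and S100a9 are shown because they share a stretch of sequence ahead of their start. Each run holds the 150 bases before the RefSeq start, 5′ to 3′ on the gene's strand, from the RefSeq table for GRCm38.p6. Capitals mark the kappa B sequence GGGAATTTC and a TATA-like ATAAAAG.
Cxcl1, chr5:90891095-90891244, forward strand: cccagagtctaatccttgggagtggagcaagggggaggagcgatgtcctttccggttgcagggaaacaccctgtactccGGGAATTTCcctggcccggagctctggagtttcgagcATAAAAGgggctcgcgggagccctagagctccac
Cxcl2, chr5:90903749-90903898, forward strand: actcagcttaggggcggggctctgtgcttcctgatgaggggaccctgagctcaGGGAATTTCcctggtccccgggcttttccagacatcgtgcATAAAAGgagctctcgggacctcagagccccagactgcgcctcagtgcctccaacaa
Cxcl3, chr5:90785951-90786100, forward strand: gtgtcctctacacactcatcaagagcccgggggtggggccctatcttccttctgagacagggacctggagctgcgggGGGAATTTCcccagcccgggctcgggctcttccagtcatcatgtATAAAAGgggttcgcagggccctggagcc
S100a9, chr3:90695722-90695871, reverse strand: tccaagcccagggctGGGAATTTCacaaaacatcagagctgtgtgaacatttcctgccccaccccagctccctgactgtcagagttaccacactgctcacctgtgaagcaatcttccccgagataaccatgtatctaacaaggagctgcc

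The kappa B family of sites is bound by NF-kappa B, the transcription factor that switches on many inflammatory genes. The motifs were chosen after the sequences had been seen, and both strands were searched. GGGAATTTC was found at positions -71 to -63 from the start in Cxcl1, -97 to -89 in Cxcl2, -73 to -65 in Cxcl3 and -135 to -127 in S100a9. It was present in 51 of 32851 windows of this length (0.155%). ATAAAAG was present in 3.014% of windows, and among members in Cxcl1, Cxcl2, Cxcl3 and S100a8. The loose C/EBP-like pattern TTNNGNAA was present in 22.745% of windows, and among members in Trem1, S100a8 and S100a9, where it overlaps the kappa B form. A window was found for 9 of the 10 members, without Cxcl5. A match describes letters only and says nothing of binding.

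The libraries held 25440773 to 30797409 assigned fragments each, recovered from the steps of the deposited values. Levels are FPKM, fragments scaled to gene length and library depth. The length is that of all annotated exons joined. For Cxcl1 (1875 bases), Cxcl2 (2068) and Cxcl3 (3498) it equals the whole span of the gene, introns included. Levels of different genes can therefore be set side by side only roughly, whereas libraries can be compared gene by gene. Every member passed the filter of at least 1 FPKM in 2 libraries, and the fewest fragments behind any member value were 10, for Retnlg in control day 9 replicate 2. The skin label was checked on the keratinocyte genes, which were high in every library: Krt14, from 600.5 to 12732 FPKM, and Krt5, from 540.0 to 2020.4 FPKM, over the 17 libraries. The 2 day-0 libraries stood apart: mitochondrially encoded genes took 21.7% and 31.8% of their summed FPKM, against 8.33% to 12.6% in the others. The 5 skeletal muscle genes on a fixed list summed to 15417 and 18305 FPKM at day 0 and to at most 3868 elsewhere. In whole tissue, fewer cells of a type and less RNA per cell cannot be told apart.

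**Figure D1:**
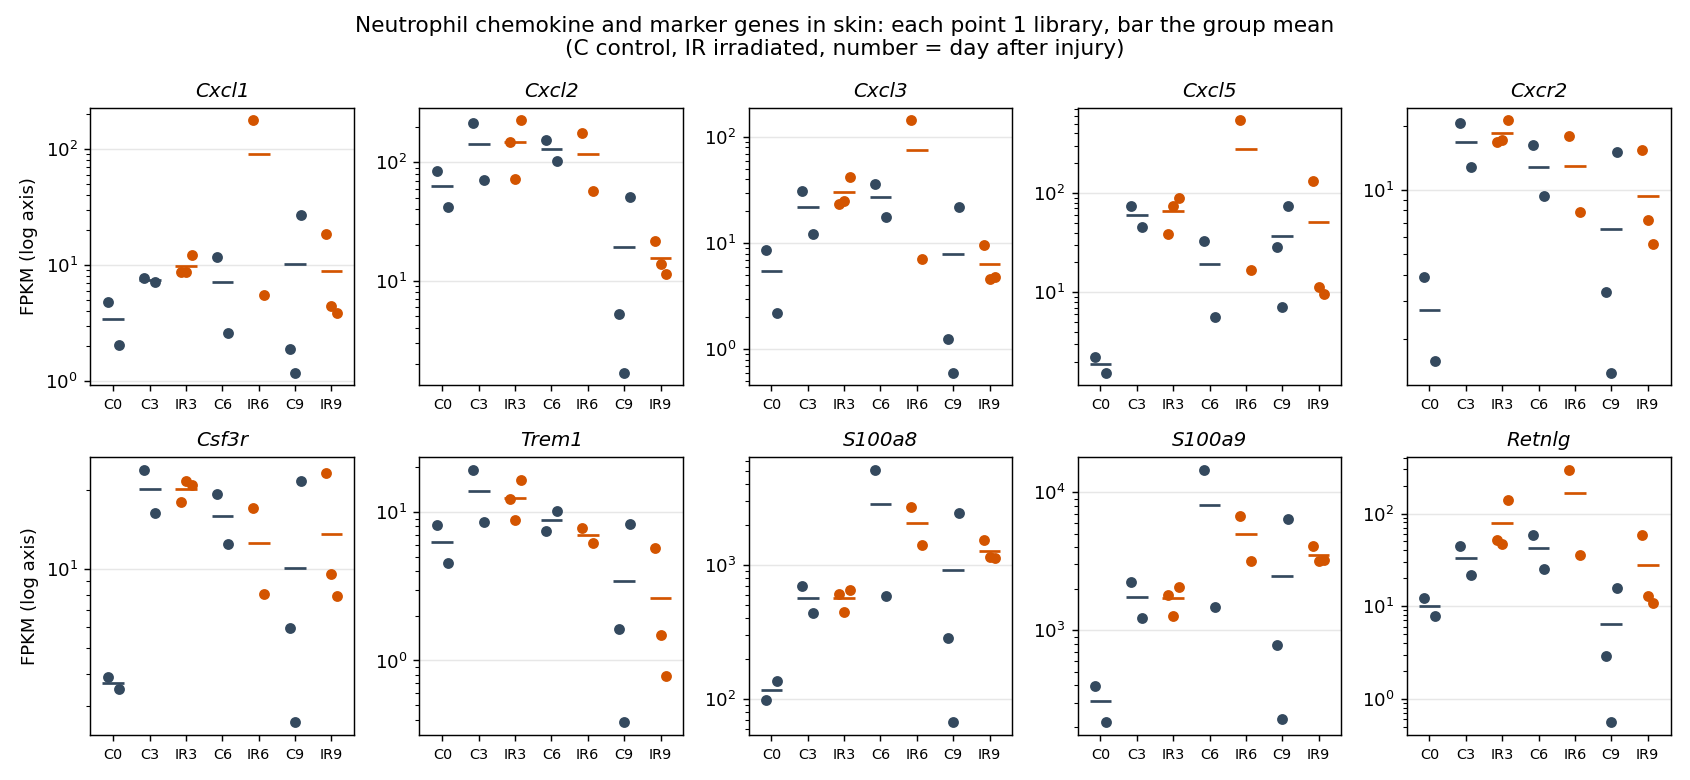
FPKM of each gene on a log axis by group, with each point 1 library and each bar the mean of a group, control groups in grey and irradiated groups in orange. Day-0 libraries are low for Cxcl5, Cxcr2, Csf3r, S100a8 and S100a9, and the points of control day 9 and irradiated day 6 spread widely.

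Among the ligands, Cxcl1 stood at 4.76 and 2.02 FPKM in control day 0, 7.68 and 7.14 at day 3, 11.8 and 2.58 at day 6, and 1.89, 1.17 and 27.3 at day 9. In irradiated skin it stood at 8.62, 8.70 and 12.2 FPKM at day 3, 178 and 5.52 at day 6, and 18.4, 4.43 and 3.84 at day 9. The 3 irradiated day-3 libraries were above both control libraries of that day, and at days 6 and 9 the arms overlapped. At day 6 a single irradiated library, replicate 1, lay far above all others.

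Cxcl2, the ligand with the highest level at day 0, stood there at 85.4 and 41.9 FPKM. It stood at 217 and 70.4 in control day 3, 155 and 102 in control day 6, and 5.24, 1.67 and 51.1 in control day 9. In irradiated skin it stood at 148, 72.7 and 227 FPKM at day 3, 177 and 57.0 at day 6, and 21.6, 13.9 and 11.4 at day 9. In both arms every day-9 library was below every day-3 library, and the arms overlapped on each day.

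Cxcl3 stood at 8.65 and 2.18 FPKM in control day 0, 31.3 and 12.3 at day 3, 36.2 and 17.8 at day 6, and 1.25, 0.600 and 21.7 at day 9. Its irradiated values were 23.3, 25.0 and 42.0 FPKM at day 3, 145 and 7.13 at day 6, and 9.72, 4.65 and 4.77 at day 9. In irradiated skin day 9 lay wholly below day 3, whereas in control skin replicate 3 of day 9 fell inside the day-3 range.

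Cxcl5, whose product is made largely by epithelial cells, started from the lowest level of the 4, at 2.22 and 1.55 FPKM in control day 0. It stood at 74.2 and 45.4 FPKM in control day 3, 33.0 and 5.60 at day 6, and 28.4, 7.03 and 74.2 at day 9. In irradiated skin it stood at 38.2, 73.2 and 88.0 at day 3, 541 and 16.6 at day 6, and 132, 11.2 and 9.57 at day 9. All 15 libraries of days 3, 6 and 9 lay above both day-0 libraries.

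Cxcr2, the receptor that these ligands share, stood at 3.91 and 1.58 FPKM in control day 0, 20.5 and 12.8 at day 3, 16.2 and 9.32 at day 6, and 3.33, 1.39 and 14.98 at day 9. In irradiated skin its values were 16.8, 17.2 and 21.2 FPKM at day 3, 17.9 and 7.84 at day 6, and 15.3, 7.26 and 5.56 at day 9. Csf3r had nearly the same course, with 3.88 and 3.50 FPKM in control day 0, 23.99 and 16.4 at day 3, 19.3 and 12.5 at day 6, and 5.96, 2.61 and 21.7 at day 9. Its irradiated values were 18.0, 21.7 and 21.05 FPKM at day 3, 17.1 and 8.06 at day 6, and 23.3, 9.60 and 7.91 at day 9. For both receptors the arms overlapped on each of days 3, 6 and 9.

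Trem1 was already at 8.11 and 4.50 FPKM in control day 0 and stood at 19.2 and 8.53 at day 3, 7.48 and 10.0 at day 6, and 1.62, 0.384 and 8.25 at day 9. Irradiated skin held 12.2, 8.75 and 16.5 FPKM at day 3, 7.75 and 6.15 at day 6, and 5.66, 1.48 and 0.789 at day 9. Day 9 was below day 3 in every library of either arm.

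The calprotectin genes were the most abundant members. S100a8 stood at 99.2 and 136 FPKM in control day 0, 701 and 441 at day 3, 5144 and 591 at day 6, and 284, 67.4 and 2422 at day 9. In irradiated skin it stood at 607, 443 and 652 FPKM at day 3, 2707 and 1405 at day 6, and 1536, 1139 and 1122 at day 9. The 3 irradiated day-9 libraries thus lay close together, between the 2 low and the 1 high control library.

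S100a9 stood at 398 and 217 FPKM in control day 0, 2252 and 1226 at day 3, 14576 and 1468 at day 6, and 778, 229 and 6439.6 at day 9. In irradiated skin it stood at 1798, 1265 and 2068 FPKM at day 3, 6733 and 3173 at day 6, and 4080.5, 3195 and 3259 at day 9. In FPKM, S100a9 exceeded S100a8 in every library, by 1.60 to 4.01 times (median 2.80). This ratio rests on the exon lengths used, 522 bases for S100a9 and 694 for S100a8. Unlike the ligands and receptors, both genes were higher in every irradiated day-9 library than in any irradiated day-3 library.

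Retnlg stood at 12.3 and 7.88 FPKM in control day 0, 44.5 and 21.5 at day 3, 58.9 and 25.1 at day 6, and 2.89, 0.557 and 15.7 at day 9. In irradiated skin it stood at 51.7, 46.7 and 141.0 FPKM at day 3, 298 and 35.4 at day 6, and 59.1, 12.9 and 10.7 at day 9. It was above both control libraries in each irradiated library of day 3, and the arms overlapped at days 6 and 9.

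In control skin, Cxcl5, Cxcr2 and Csf3r rose between day 0 and day 3. A change is the log2 fold change of FPKM + 1, given with its standard error (SE), and adjusted p-values come from limma over all 15271 tested genes, with a threshold of 0.05. Cxcl5 rose by 4.37 (SE 1.56, adjusted p 0.0429; FPKM from 1.88 ± 0.472 to 59.8 ± 20.3 (SD, n = 2 in each group). The mean of Cxcr2 went from 2.75 ± 1.64 to 16.7 ± 5.49 FPKM, a rise of 2.27 (SE 0.727, adjusted p 0.0268). That of Csf3r went from 3.69 ± 0.266 to 20.2 ± 5.38 FPKM, a rise of 2.15 (SE 0.682, adjusted p 0.0258). All 3 calls ended with a replicate block (adjusted p 0.0545 to 0.0605) and with no filter on low values (0.0571 to 0.0913). Thus 3 of 10 members rose, beside 25.8% of all tested genes (38.1% changed in either direction), so the count was near the background. For the other 7 the log2 fold changes were also positive, from 0.97 for Trem1 to 2.50 for S100a9, and did not pass. The libraries of the 2 days did not overlap for 9 members, all but Cxcl2, and day 3 was the higher, beside 45.2% of all tested genes. The median change was 2.03 over the members and 0.16 over all tested genes.

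At day 6 the 2 members that passed were the calprotectin genes S100a8 and S100a9. Their changes had been positive at day 3 also (2.25 and 2.50, not passing), and day 6 was not tested against day 3. Against day 0, S100a8 went from 117 ± 25.8 to 2867 ± 3219 FPKM (SD, n = 2 each), a rise of 3.90 (SE 1.26, adjusted p 0.0301). S100a9 went from 307 ± 128 to 8022 ± 9268 FPKM, a rise of 3.97 (SE 1.25, adjusted p 0.0266). Without control day 6 replicate 1, the library at 5144 and 14576 FPKM, the changes were 2.34 and 2.32 and neither passed (adjusted p 0.243 and 0.231). These 2 of 10 members stood beside 21.1% of all tested genes that rose and 14.2% that fell (35.3% together), so the count was near the background. Day 6 lay wholly above day 0 for 8 members, all but Cxcl1 and Trem1, beside 37.7% of tested genes. Csf3r (1.82, adjusted p 0.0552) and Cxcr2 (1.90, adjusted p 0.0592) did not pass. Keratinocyte genes switched on by wounding moved in the same comparison, since 12 of the 13 on the list rose, and their part in the S100a8 and S100a9 values was not tested. Summed over the list they reached 363 to 814 FPKM at day 0 and 10274 to 24262 at day 6, with the top value again in replicate 1.

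At day 9 Cxcl2 was lower than at day 0 and fell by 2.67 (SE 1.004, adjusted p 0.0434), from 63.6 ± 30.7 (n = 2) to 19.3 ± 27.6 FPKM (SD, n = 3), and the libraries overlapped. It was the only member that passed, beside 18% of tested genes that fell and 30.4% that rose (48.4% together). Cxcl5 stood at 3.19 (adjusted p 0.082), and its libraries did not overlap, beside 40.2% of tested genes wholly higher. Against day 3, Cxcl2 at day 9 fell by 3.71 (SE 1.004, adjusted p 0.0253), again as the only member, beside 10.2% of tested genes that fell and 8.02% that rose. All 10 members had negative changes in that comparison, from -0.58 for Cxcl1 to -3.71, with a median of -1.49 against -0.07 over all tested genes. Trem1 (-2.11, adjusted p 0.0551) and Retnlg (-2.78, adjusted p 0.0898) did not pass. With Cxcl2 they were the 3 members wholly lower at day 9, beside 34.9% of tested genes.

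One library bore on this decline. Without control day 9 replicate 3, 6 members fell between days 3 and 9: Cxcl2, Cxcl3 (-3.45, adjusted p 0.046), Cxcr2 (-2.42, adjusted p 0.0098), Csf3r (-2.06, adjusted p 0.0154), Trem1 (-2.87, adjusted p 0.00799) and Retnlg (-3.70, adjusted p 0.0317). All 10 members were above their group mean in the library left out. The shares of all tested genes given above are those of the fit of all 17 libraries. This count of 6 thus has no background beside it and is not read as a result about the members. Leaving out any 1 of the 4 other libraries of control days 3 and 9 ended the call of Cxcl2 (adjusted p 0.0725 to 0.173). Of the calls against day 0, those of Cxcl5 and Csf3r at day 3 ended without any 1 of the 4 compared libraries. Among the compared libraries, that of Cxcr2 held without day 0 replicate 1 alone, those of S100a8 and S100a9 without day 6 replicate 2 alone, and that of Cxcl2 without day 9 replicate 3 alone. The call of Cxcl2 at day 9 against day 0 ended in 13 of 26 alternatives. It ended also without control day 6 replicate 1 or 2, irradiated day 3 replicate 1 or any irradiated day 9 library, all outside the comparison. The 3 comparisons with day 0 share its 2 libraries.

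**Figure D2:**
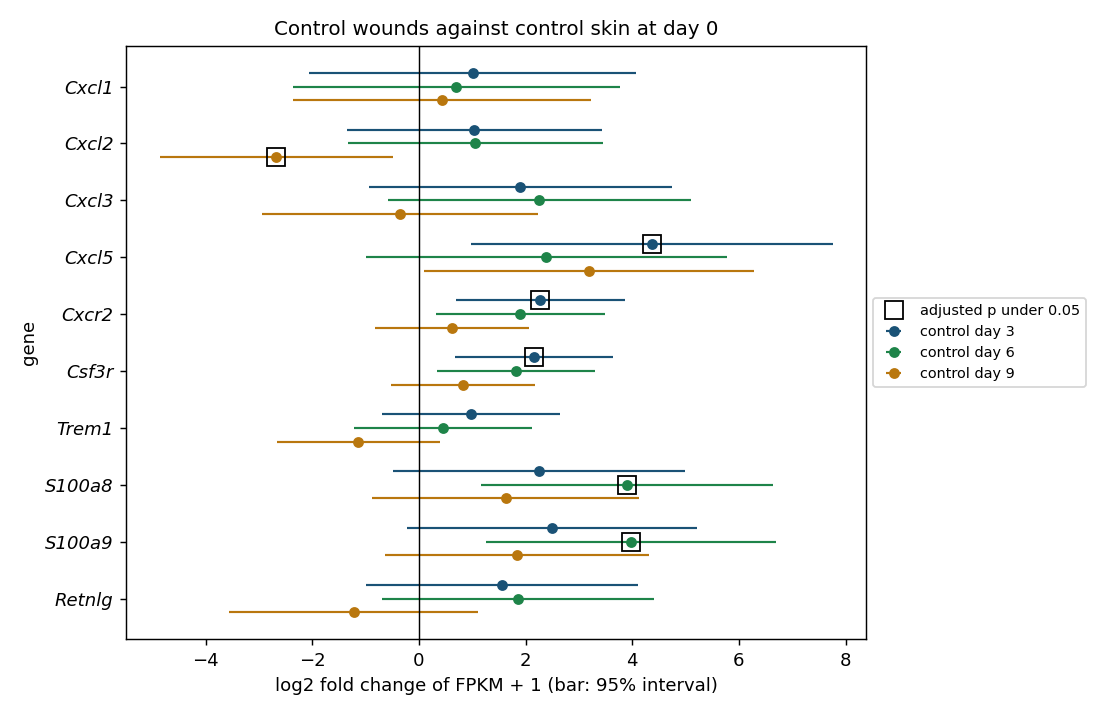
Log2 fold change of FPKM + 1 of control days 3, 6 and 9 against control day 0 for each gene, with 95% intervals and squares around changes with an adjusted p under 0.05. Cxcl5, Cxcr2 and Csf3r carry a square at day 3, S100a8 and S100a9 at day 6, and Cxcl2, below 0, at day 9.

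No member changed between irradiated and control skin of the same day. At day 3 none of 10 passed in limma and none had an unadjusted p under 0.05, beside 1.85% of all tested genes called (1.56% higher and 0.288% lower). Changes ran from -0.08 for Trem1 to 1.15 for Retnlg (SE 1.07, adjusted p 0.778), with a median of 0.12 against -0.04 over all tested genes. The mean of Csf3r was 20.3 ± 1.93 FPKM (n = 3) with irradiation and 20.2 ± 5.38 (n = 2) without, and the 95% interval of its change was -1.33 to 1.38. S100a8 averaged 567 ± 110 and 571 ± 184 FPKM, with an interval of -2.49 to 2.51. Cxcl1 and Retnlg were the 2 members with every irradiated library above every control library, beside 15.9% of all tested genes. These intervals are wide, so changes of several-fold in either direction could not have been detected.

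At day 6 none of 10 passed and none had an unadjusted p under 0.05 (limma, 0.275% of tested genes called). The widest difference was that of Cxcl5, at 279 ± 371 FPKM in irradiated and 19.3 ± 19.4 in control skin (SD, n = 2 each), a change of 2.71 (SE 1.56, 95% interval -0.68 to 6.09, adjusted p 0.425). Retnlg stood at 1.40, and 5 members had positive and 5 negative changes. No member separated the arms at this day, whereas 19.8% of tested genes lay wholly higher and 16% wholly lower with irradiation.

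At day 9 none of 10 passed and 1, Retnlg, had an unadjusted p under 0.05 (limma, 5.38% of tested genes called, 2.33% higher and 3.05% lower). The mean of Retnlg was 27.6 ± 27.3 FPKM with irradiation and 6.37 ± 8.14 without (SD, n = 3 each), a change of 2.2 (SE 0.958, 95% interval 0.12 to 4.28, adjusted p 0.195). S100a8 stood at 1.79 (SE 1.03, adjusted p 0.324) and S100a9 at 1.74 (SE 1.02, adjusted p 0.336). Only 1 of 26 alternatives, the fit without control day 9 replicate 3, called either gene. There both passed as higher in irradiated skin, S100a8 by 3.17 (adjusted p 0.0348) and S100a9 by 3.04 (adjusted p 0.0492). All 10 members were above their group mean in that library, and the share of all tested genes called without it is not given here. The 2 control libraries then left hold 284 and 67.4 FPKM of S100a8, and the 3 irradiated libraries 1122 to 1536.

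Averaged over days 3, 6 and 9 with equal weight, none of 10 passed and 1, again Retnlg, had an unadjusted p under 0.05 (limma, 6.93% of tested genes called). Retnlg stood at 1.58 (SE 0.618, 95% interval 0.24 to 2.93, adjusted p 0.15), and at 2.09 (adjusted p 0.0465) without irradiated day 6 replicate 3. Cxcl1 stood at 1.06 (adjusted p 0.433), Cxcl5 at 0.93 (adjusted p 0.546) and Trem1 at -0.14 (adjusted p 0.871). The effect of irradiation did not pass as different between days for any member, by an F test (adjusted p 0.658 to 0.993) or for day 9 minus day 3 (adjusted p 0.627 to 0.994), with none of 10 at an unadjusted p under 0.05. Over all genes these tests called 0.0131% and 0%. limma-voom on the recovered fragments also called no member in any comparison of irradiated with control skin, or between irradiated days 3 and 9.

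**Figure D3:**
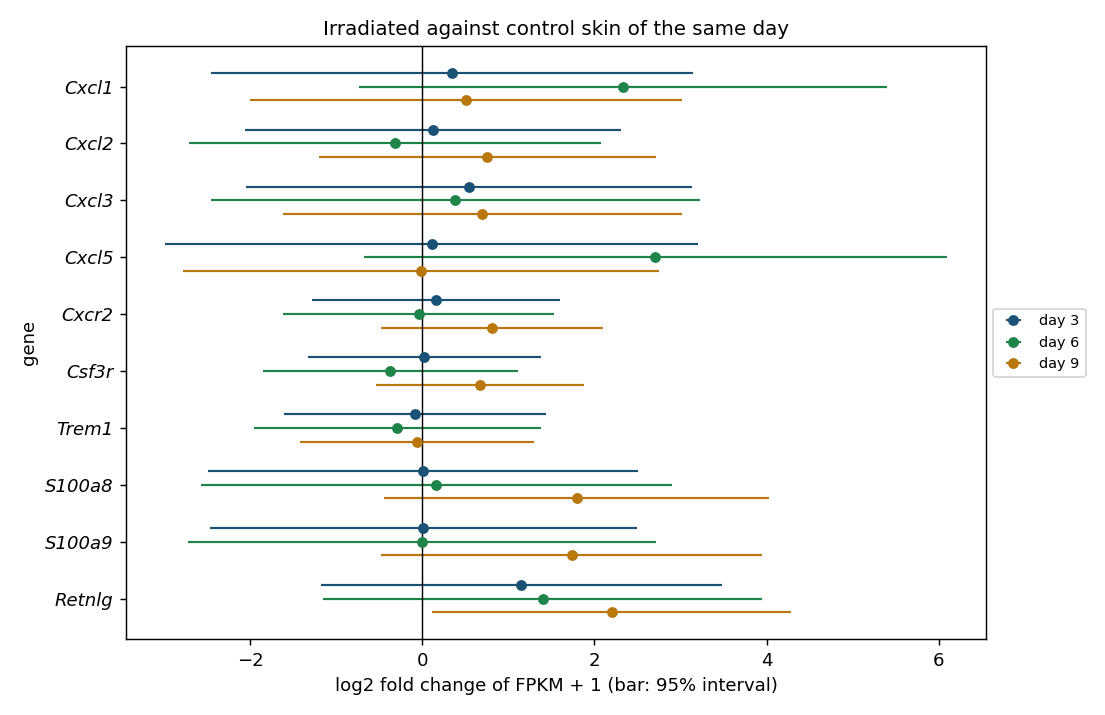
Log2 fold change of FPKM + 1 of irradiated against control skin at days 3, 6 and 9 for each gene, with 95% intervals. Only the day-9 interval of Retnlg, 0.12 to 4.28, leaves out 0, and no change has an adjusted p under 0.05.

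Within irradiated skin no member passed between days 3 and 9 (limma, 2 at an unadjusted p under 0.05, Cxcl2 and Trem1, and 0.963% of tested genes called, 0.38% higher and 0.583% lower). Cxcl2 averaged 149 ± 77.2 FPKM at day 3 and 15.7 ± 5.30 at day 9 (SD, n = 3 each), a change of -3.07 (SE 0.898, adjusted p 0.116). Trem1 averaged 12.5 ± 3.87 and 2.65 ± 2.64 FPKM, a change of -2.08 (SE 0.626, adjusted p 0.125). Both passed without control day 9 replicate 3 (adjusted p 0.0265 and 0.0481), a library of neither group, which enters through the shared estimate of spread. Day 9 lay wholly below day 3 for Cxcl2, Cxcl3, Cxcr2 and Trem1, 4 of 10 beside 17.7% of all tested genes. It lay wholly above for S100a8 and S100a9, 2 of 10 beside 13.9%, with changes of 1.16 (adjusted p 0.627) and 1.06 (adjusted p 0.663). With only these 6 libraries in the fit, Cxcl2 (adjusted p 0.0295), Cxcl3 (0.0331) and S100a8 (0.0376) passed. The share of all tested genes called in that fit is not given here.

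The members shared a wide spread between libraries of the same group. Their standard deviation within groups, on the log2 scale of FPKM + 1, ran from 0.753 for Csf3r to 1.73 for Cxcl5, with a median of 1.34, against a median of 0.169 over all tested genes. Each member lay above the 98th percentile of tested genes in this measure, from 98.3 for Csf3r to 99.97 for Cxcl5. Cxcl5 differed 32.6-fold between the 2 irradiated day-6 libraries, Cxcl1 32.2-fold and Csf3r 2.12-fold. The lowest library of 8 members was control day 9 replicate 2, and for Cxcl5 and S100a9 it was control day 0 replicate 2.

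The spread ran the same way in most members. All 10 were above their group mean in control day 3 replicate 1, control day 9 replicate 3, irradiated day 3 replicate 3, irradiated day 6 replicate 1 and irradiated day 9 replicate 1. In these libraries 35.1% to 52.5% of all tested genes were above theirs. In control day 6 replicate 1 and control day 0 replicate 1, 9 members were above, Trem1 being the exception in the first and S100a8 in the second. The mean deviation over the members was 2.04 in control day 9 replicate 3 and 1.15 in irradiated day 6 replicate 1. A day mean of any of these genes thus rests on which libraries the group holds.

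**Figure D4:**
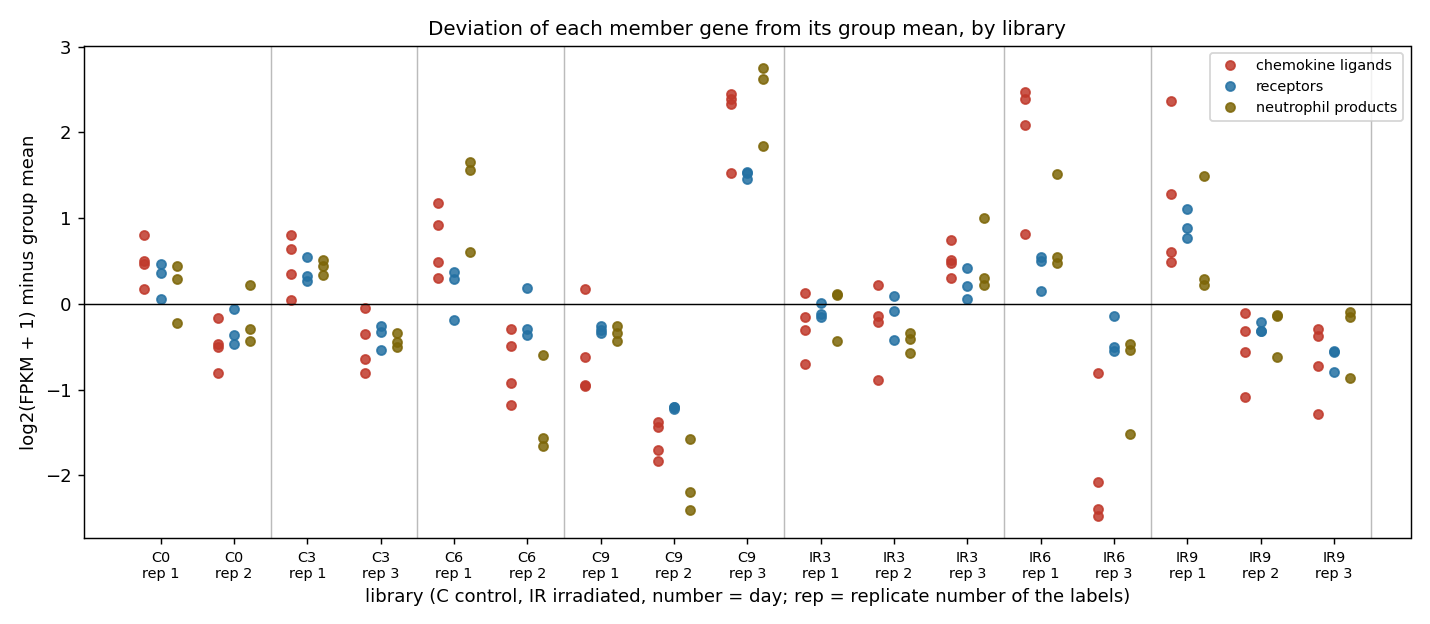
Deviation of each gene from its group mean in log2(FPKM + 1), by library, with ligands in red, receptors in blue and neutrophil products in brown. All 10 genes lie above 0 in control day 9 replicate 3 and in irradiated day 6 replicate 1, and all 10 lie below in control day 9 replicate 2 and irradiated day 6 replicate 3.

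In irradiated day 6, 25 of 36 other neutrophil marker genes were higher in replicate 1 and 11 in replicate 3. The list as a whole summed lower in replicate 1, to 3444 FPKM against 4498.5, of which the stefin A genes Stfa1, Stfa2 and BC100530 made up 2173 and 4049. The genes named next were chosen after their values were seen. Ly6g, a surface marker of mouse neutrophils, stood there at 6.89 FPKM against 0.766 in replicate 3. The collagenase gene Mmp8 stood at 58.3 against 2.90, Cd177 at 8.71 against 0.495, the secondary granule gene Ngp at 9.84 against 0.325, and Fpr1, a receptor for bacterial peptides, at 24.8 against 4.93. The growth factor gene Csf3, whose product is the ligand of the Csf3r receptor, stood at 91.6 against 2.22 FPKM, and the cytokine gene Il6 at 31.8 against 0.906. Keratinocyte genes ran the other way, with 8 genes summing to 4793 FPKM in replicate 1 and 15813 in replicate 3. The part of this difference in the members' values was not tested.

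Control day 9 replicate 3 differed in other genes. Those named for this library were chosen after their values were seen, and the genes of their lists were not counted by direction. Il17a, the T cell cytokine that induces neutrophil chemokines in epithelium, stood at 20.99 FPKM there, was listed at 0 in the other 2 control day-9 libraries, and reached at most 2.35 elsewhere. Csf3 stood at 17.9 FPKM against 0.552 and 0.359 in those libraries, and the interleukin gene Il1b at 181 against 20.9 and 6.00. Ly6g stood at 0.690 FPKM there and was listed at 0 in the other 2. Keratinocyte genes summed to 6179 FPKM in this library, against 8469.8 and 11437 in the others. The part of these genes in the members' values was not tested. The primary granule genes Mpo and Elane, made in bone marrow precursors, did not exceed 0.285 and 0.244 FPKM in any library.

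Other genes of the pathway were read from lists. Of 36 other neutrophil marker genes 31 were tested, and 4 rose at day 3 against day 0, none fell, and the median was 0.79, beside 25.8% of all tested genes that rose, a larger share than in the list. These were Stfa2 (6.39), Stfa1 (5.41) and BC100530 (4.42) of the stefin A family of protease inhibitors, which keratinocytes also express, and the chemokine receptor gene Cxcr4 (1.45). Reads of the stefin A genes are hard to assign, since these copies are close to identical. At day 6 5 rose, the same 4 and Hcar2 (1.54), and at day 9 4 rose and 2 fell, Ifitm6 (-2.60) and Il1r2 (-1.58). Of all tested genes 21.1% rose at day 6, and 30.4% rose and 18% fell at day 9. From day 3 to day 9, 5 of 31 fell and none rose, among them Stfa2l1 (-3.18), the histidine decarboxylase gene Hdc (-2.53), G0s2 (-1.84) and Hcar2 (-1.49), with a median of -1.13, beside 10.2% of all tested genes that fell and 8.02% that rose.

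Among 24 genes that induce neutrophil chemokines, 23 were tested and 8 rose at day 3, 7 at day 6 and 6 at day 9 against day 0, with none falling. Of all tested genes 25.8%, 21.1% and 30.4% rose in these comparisons, so the counts of the list were near the background. The interleukin 36 genes, made by keratinocytes, led on each day. Il36a averaged 1.96 ± 0.446 FPKM at day 0 (n = 2), 10.1 ± 1.58 at day 3 (n = 2), 87.3 ± 56.8 at day 6 (n = 2) and 61.7 ± 16.4 at day 9 (n = 3). Its changes were 1.91, 4.74 and 4.37 (adjusted p 0.00461, 3.1e-05 and 9.49e-06). Il36g rose by 2.43, 3.13 and 2.18, Il36b by 2.23, 3.53 and 2.95, and the gene of their antagonist, Il36rn, by 1.58, 2.88 and 2.30. Il36a also rose from day 3 to day 9 in both arms, by 2.47 in control (adjusted p 0.00262) and 3.04 in irradiated skin (adjusted p 0.00392).

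Of 31 neutrophil growth and trafficking genes 27 were tested, and 9 rose at day 3 against day 0, beside 25.8% of all tested genes. They included the chemokine gene Cxcl12 (1.94), the platelet chemokine gene Pf4 (1.89), the leukotriene B4 receptor gene Ltb4r1 (1.41) and Tyrobp (1.34), which encodes the adaptor of TREM1. At day 6 5 rose and 1 fell, and Ackr1, the venular receptor that takes up chemokines, was the gene that fell (-1.07), beside 21.1% and 14.2% of all tested genes. At day 9 5 rose and 3 fell, with Ccl4 at -2.82, Ccl3 at -2.14 and Ackr1 at -1.14 falling and Itgb2, an integrin chain of leukocytes, rising by 1.36, beside 30.4% of all tested genes that rose and 18% that fell. Between days 3 and 9, 3 fell: Ccl4 (-2.83), Ltb4r1 (-1.37) and the 5-lipoxygenase gene Alox5 (-0.97), beside 10.2% of all tested genes.

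Few genes of these lists passed between irradiated and control skin, most of them on the growth and trafficking list. Averaged over the days, 3 of 27 growth and trafficking genes rose and 1 fell, beside 4.36% and 2.57% of all tested genes, so the share called was larger in the list. Pf4 rose by 1.22 (SE 0.287, adjusted p 0.025), from 131 ± 62.7 (n = 7) to 336 ± 228 FPKM (n = 8), the adhesion molecule gene Icam1 by 0.75 (SE 0.164, adjusted p 0.0172) and Alox5 by 0.60 (SE 0.146, adjusted p 0.028). Lta4h, which encodes the hydrolase that makes leukotriene B4, fell by 0.16 (adjusted p 0.043). Pf4 is also a platelet gene. The 6 platelet genes, Pf4 among them, summed to 369.8 to 899 FPKM in irradiated and 192 to 276 in control day-3 libraries, so the sum holds the change of Pf4 itself. Of the 4 platelet genes tested, none passed at day 3, and Pf4 alone passed averaged over the days. Among the 31 other neutrophil markers tested, Cxcr4 at day 9 was the only one that passed on any day or averaged over them, and it fell by 1.16 (adjusted p 0.0452). Mmp8 had a change of 1.44 averaged over the days (adjusted p 0.116) and Ly6g of 0.61 (adjusted p 0.31). Among the inducers only Ager, which encodes a receptor for S100 proteins, passed, falling by 0.27 averaged over the days (adjusted p 0.00942) and by 0.33 at day 9 (adjusted p 0.0415), from a level near 1 FPKM.

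The genes most like the members over the 17 libraries were found by Pearson's r with the mean standardized level of each role, among 12868 named protein-coding genes, as a description only. The libraries differ in day and arm, which all genes share, so r is given with no test. The ligands' nearest genes were Ifitm1 (r 0.96), Hilpda (0.95), Arid5a (0.94), Ier3 (0.94) and Socs3 (0.93). Among the receptors' nearest were Ccr1 (0.93), Slc15a3 (0.93), H2-Q10 (0.92) and Mcemp1 (0.92). For the neutrophil products they were Nfkbiz (0.94), Zc3h12a (0.93), Upp1 (0.90), Nod2 (0.90) and Uox (0.90).

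Markers of other cells differed between days and between arms. Macrophage and monocyte genes, 12 in number, summed to 437 to 1637 FPKM at day 0 and 1287 to 3589.8 in the other libraries, and monocytes also express Trem1. With irradiation, averaged over the days, Fcgr1 (1.60), C1qa (1.03), C1qc (1.03) and Cd68 (0.91) of this list rose and Ccr2 (-1.55) fell, 5 of 12 beside 6.93% of all tested genes. The 6 eosinophil genes summed to 2.68 to 31.7 FPKM and 6 mast cell genes to 30.5 to 252 FPKM over the 17 libraries. Fibroblast genes, 6 in all, reached 7145 to 8823 FPKM in control day 9 and 3424 to 6263 in irradiated day 9. The 4 endothelial genes summed to 43.2 to 121 FPKM and 5 adipocyte genes to 148 to 1584. At day 9 the adipocyte sums did not overlap, with 148 to 220.2 FPKM in control and 375 to 1043 in irradiated skin, where Adipoq (2.53) and Cfd (2.31) rose. The 5 red blood cell genes split the arms at days 3 and 6. They summed to 155 to 210 FPKM in control and 2.03 to 8.34 in irradiated day 3, and to 84.7 to 133 and 0.758 to 1.34 at day 6. At day 9 their sums overlapped, at 76.6 to 198 FPKM in control and 52.0 to 80.1 in irradiated skin, and none of the 5 passed. Mast cell genes summed to 30.5 to 32.1 FPKM in control and 115 to 252 in irradiated day 9. The part of these cells in the members' values was not tested.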

How the data were processed

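RNA from mouse skin was sequenced as paired-end Smart-Seq2 libraries, per the labels' protocols. Reads were aligned with HISAT2 2.2.1 to mm10, per the submitters' processing notes, and the sources used here name no counting tool or annotation. The authors deposited FPKM values for 34140 genes, each library in a column of its own, and no counts. With exon lengths of GENCODE M21, 90.934% of nonzero values were whole fragments within 0.01. For 9 members every value was whole, and for Retnlg a length of 608 in place of 593 bases made them so, by construction.

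The values were analysed as log2(FPKM + 1). Genes with at least 1 FPKM in at least 2 libraries were kept (15271). limma 3.58.1 (limma-trend, R 4.3.3) fitted 1 mean per group to all 17 libraries, tested on simulated data first, and p-values were adjusted by Benjamini and Hochberg over all kept genes. Fold changes on this scale understate the change of low genes. The members and gene lists were chosen with earlier results of these data known. All members are named. List genes named are at most 4 per comparison, those that passed with the largest change and at least 1 FPKM, and others were chosen after their values were seen.

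Alternatives were pseudocounts of 0.1 and 5, no filter, a minimum of 5 FPKM, median-of-ratios scaling, rescaling to nuclear genes, only the groups compared, a replicate block and each library left out. limma-voom on recovered fragments was added after seeing the data. Promoter windows come from RefSeq (GRCm38.p6). Not every gene found is reported here.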

Additional observations from a re-analysis of the deposited data

How the results depend on the processing

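For the comparisons of irradiated with control skin, no member passed under any alternative except when a library was left out, with ranges of 0 to 2 members at day 9 and 0 to 1 averaged over days. Left-out libraries gave 0 to 4 members for control day 3 against day 0, 0 to 4 for day 6, 0 to 3 for day 9, 0 to 6 for control day 9 against day 3, and 0 to 2 for irradiated day 9 against day 3. With no filter on low values, the counts of 3, 2, 1 and 1 members for the control comparisons all became 0, with the same fold changes but more genes tested. A pseudocount of 5 gave 0 members for control day 9 against day 0, and 2 (Cxcl2 and Trem1) for day 9 against day 3, as did limma-voom. Fitting only the groups compared gave 5 for control day 3 against day 0, 0 for day 6, 0 for day 9, 0 for day 9 against day 3, and 3 for irradiated day 9 against day 3. The shares of all tested genes called under these alternatives are not given here. The call of Cxcl5 at day 3 ended with a pseudocount of 5, both scalings, the replicate block, limma-voom and without any of 8 libraries. No called member changed direction under any alternative. A replicate block gave 0 members for control day 3 against day 0 (Csf3r adjusted p 0.0605, Cxcr2 0.0567, Cxcl5 0.0545). The labels do not say that replicate numbers pair libraries, and same-numbered libraries of a day had residual r from -0.122 to 0.298. Against day 0 the median of all genes was 0.16, 0.11 and 0.15 as deposited and 0, 0.02 and 0.04 after median-of-ratios scaling.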
